A study of Mus musculus with 44 samples.

Results

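The response of the dorsal hippocampus to contextual fear conditioning was compared between WT mice and mice homozygous for a Kdm5b allele that lacks the ARID domain (Kdm5bDARID/DARID, called mutants here). The comparison rests on the 24 libraries of the second cohort taken at baseline (0 h) and at 1 h after the foot shock (1h post-US in the labels), out of 44 samples in the whole series. It has 6 libraries for each genotype and time, 3 labelled male and 3 labelled female, and asks whether the change from 0 h to 1 h differed between the genotypes. The quantity followed throughout is the interaction, (mutant 1 h minus mutant 0 h) minus (WT 1 h minus WT 0 h), on the log2 scale, so that a positive value is a more positive response in mutants.

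The mice were young adults on a mixed C57BL/6J and 129S2/Sv background, and each library came from 1 mouse. The 0 h mice were naive and stayed in the home cage, so handling, exposure to the chamber and shock are all part of the response. The mutant allele removes exons from all cells throughout life, leaves part of the JmjN domain and yields a demethylase-deficient protein, so it is not a model of acute loss. RNA was taken from whole tissue, in which fewer cells of a type and less RNA per cell cannot be told apart. Gene-level counts do not show the loss of exons: Kdm5b had a lowest, median and highest level of 82.1, 87.1 and 89.2 CPM (counts scaled to the size of the library by the TMM method) in WT at 0 h and 75.8, 80.5 and 86.7 CPM in mutants at 0 h, and its interaction was 0.041 (SE 0.059), so the genotype label cannot be checked on the targeted gene here.

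The 24 libraries held 40274435 to 86720768 counts, and 17907 of 27179 genes were tested. Some libraries stood apart from their labels. WT 1 h male 1 had 51186 Xist counts and 0 counts for each of 4 Y-linked genes, against its sex label. As a check of the genotype labels, the 20 autosomal genes that differed most between the genotype labels in the other libraries were compared in each library: 18 of 20 lay nearer the other genotype in WT 1 h male 1, 17 in mutant 0 h male 1 and 14 in WT 0 h male 1, against 0 to 7 in the other 21 libraries. The 12 libraries at 3 h also took part in choosing these genes, and otherwise entered only an alternative fit of all 36 libraries. Of these 12, mutant 3 h female 2 had 36 Xist and 4185 Ddx3y counts, also against its sex label. It had 16 of 20 genes nearer the other genotype. The genes were chosen from the genotype labels and not from sex, and whether libraries were exchanged was not tested. Separately, mutant 0 h male 1, male 3 and female 2 had more of the striatal markers than the rest. Their summed level over 13 striatal markers was 153.3 to 224.5 CPM, against 109.0 to 150.2 CPM in the other 21 libraries. The summed level of 11 thalamic markers was also highest in these 3, at 255.2 to 265.5 against 106.7 to 229.8 CPM. With genes weighted equally, the thalamic markers did not set them apart. Their mean log2 level, relative to the mean of the libraries, was highest in mutant 1 h female 1 (0.71). Mutant 1 h female 3 (0.43) also lay above mutant 0 h male 3 (0.33). All libraries kept their labels, and values without these 5 libraries stand beside many of the results that they moved. Markers of dentate granule cells, CA1 and CA3 were present in every library, at summed levels of 785 to 1371, 805 to 1406 and 810 to 1149 CPM.

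Immediate early genes are transcribed within minutes of neuronal activity, from promoters that carry binding sites for factors already present in the cell, such as CREB and SRF. Many encode transcription factors of the FOS, EGR and NR4A families that switch on later genes for synaptic proteins, and others encode phosphatases that turn the signal off again. In the hippocampus this first wave is required for lasting memory of a context. KDM5B removes methyl groups from lysine 4 of histone H3, a mark found at active promoters.

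Promoter sequence is shown for 3 immediate early genes whose responses the results below turn on. They are Fosb, the only gene called in WT mice, Nr4a2, which was called in mutants, and Npas4, whose response estimate was lower in mutants. Each is the stretch of 250 bases just before the annotated start in RefSeq (GRCm38.p6), written 5′ to 3′ along the gene's strand, here the minus strand. Capitals mark the letters GCGNGGGCG, which EGR proteins are known to recognise.

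Fosb (chr7:19310046-19310295): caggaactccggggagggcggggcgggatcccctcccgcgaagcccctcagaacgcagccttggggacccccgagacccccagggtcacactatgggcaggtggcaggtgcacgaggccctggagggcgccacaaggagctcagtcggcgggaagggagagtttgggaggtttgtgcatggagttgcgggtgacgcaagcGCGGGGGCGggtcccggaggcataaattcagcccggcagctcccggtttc

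Nr4a2 (chr2:57124004-57124253): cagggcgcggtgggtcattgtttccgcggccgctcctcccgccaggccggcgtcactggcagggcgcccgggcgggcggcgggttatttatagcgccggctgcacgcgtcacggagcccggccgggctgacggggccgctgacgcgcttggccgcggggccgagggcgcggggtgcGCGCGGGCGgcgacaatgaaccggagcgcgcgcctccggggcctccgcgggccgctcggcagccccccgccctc

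Npas4 (chr19:4989972-4990221): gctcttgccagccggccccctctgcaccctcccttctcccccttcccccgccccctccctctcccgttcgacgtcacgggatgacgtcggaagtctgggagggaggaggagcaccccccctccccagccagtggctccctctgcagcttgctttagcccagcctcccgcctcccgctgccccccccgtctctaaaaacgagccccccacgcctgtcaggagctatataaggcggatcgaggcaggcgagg

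Of the 20 immediate early transcription factors listed, 16 matched the RefSeq promoter table, with 22 promoters (250 bases before to 50 after each start). The EGR letters occurred on either strand in the promoters of 8 of these 16 genes, against 6.27% of the 27025 genes in the table and 11.4% of the genes tested. The full CREB letters TGACGTCA occurred in 1 of the 16 genes (Maff), the AP-1 letters TGANTCA in 0, and the CArG box known for SRF in 2 (Egr2 and Srf), against 3.19%, 6.41% and 1.63% of the genes tested. The Npas4 promoter held none of the 4 motifs. Among the 120 matched genes that rose in the response averaged over both genotypes, the EGR letters occurred in 20.8%. A match to letters is a description of the window and no measure of binding.

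No gene passed the test of the interaction. With edgeR's quasi-likelihood test over 24 libraries, with sex as a covariate and Benjamini-Hochberg adjustment over all 17907 genes, 0 genes were called (0.0%), and the smallest adjusted p was 0.999. At an unadjusted p under 0.05 there were 677 genes (3.78%). Of these, 267 had a more positive response in mutants (1.49%) and 410 a more negative one (2.29%). That balance turned to 387 more positive and 263 more negative without the 3 striatal-high libraries. It was 417 and 373 without the 3 discordant ones and 367 and 260 without all 5. DESeq2 called 2 genes with sex as a covariate and 1 without it, both described further on.

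The data also limit how large a difference could have gone unseen. The median standard error of the interaction was 0.13, and among the 14562 genes with a mean of 1 CPM or more the 95% confidence interval reached a median of 0.22 to either side. For 13759 of these genes (94.5%) the interval lay within a 2-fold difference between the responses (1 on the log2 scale) in either direction. That bound is wide beside the responses, whose median was 0.22 in the 152 genes called higher in the response averaged over genotypes. Of the 20 immediate early transcription factors, 16 had an interval within 1 of 0 and 6 within 0.5. The median interaction over all genes was -0.0021.

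The response to training itself was small in both genotypes. Averaged over the genotypes, 174 genes were called (0.972%), 152 higher (0.849%) and 22 lower (0.123%) at 1 h, and Fosb led them with a log2 fold change of 1.36 (adjusted p = 4.8e-07). That count was 67 without mutant 1 h male 3, 344 without WT 1 h male 1, 65 without the striatal-high libraries and 424 with DESeq2. Taken alone, WT mice had 1 called gene (0.00558%), again Fosb, and mutants had 37 (0.207%), 36 of them higher (0.201%). The mutant count was 0 without the 3 striatal-high libraries, 1 without mutant 0 h male 3 alone and 72 without WT 1 h male 1, and without all 5 libraries WT mice had 11 called genes and mutants 1. The WT count was 7 without WT 1 h male 1 and 10 with DESeq2, which called 227 genes in mutants. These counts do not show that the responses differ, since the difference itself was tested above and called no gene.

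**Figure D1:**
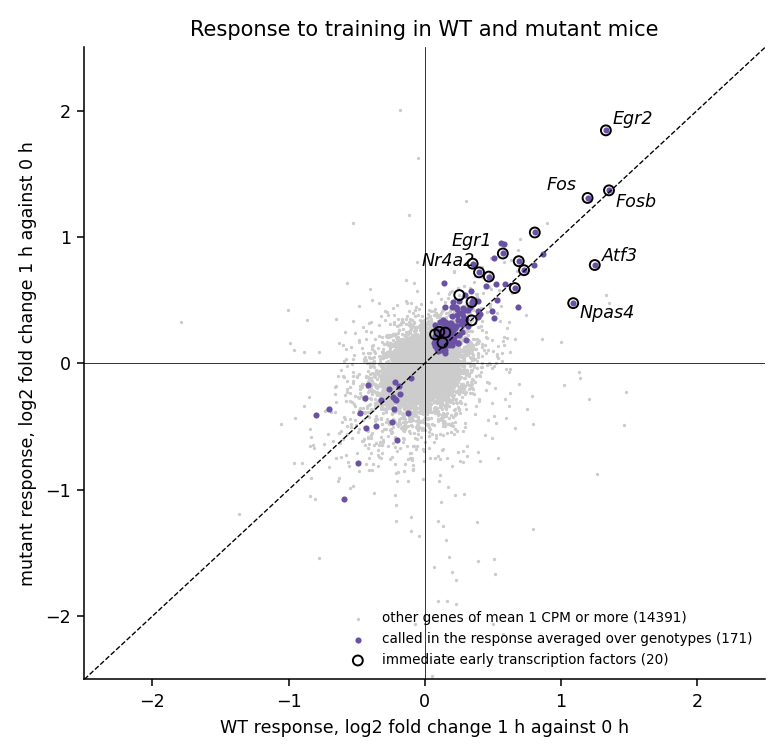
Each point is 1 of 14562 genes with a mean of 1 CPM or more, with its log2 fold change from 0 h to 1 h in WT mice (x axis) and in mutants (y axis), and 4 genes lie outside the axes. Filled purple points are the 171 of these genes called in the averaged response and rings are the 20 immediate early transcription factors, which all lie in the upper right quadrant, 16 of them above the dashed line of equal response.

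The 152 genes called higher in the averaged response had a median log2 response of 0.19 in WT mice and 0.27 in mutants. The interaction was above 0 in 117 of them (77.0%), against 49.3% of all genes tested, with a median of 0.063. Only 9 had an unadjusted p under 0.05 in this direction and 1, Npas4, in the other. The median was 0.043 without WT 1 h male 1, 0.033 without the 3 libraries whose genotype genes lay nearer the other genotype, and 0.038 without those and the other 2 libraries high in striatal markers. All 36 genes called higher in mutants had an interaction above 0, with a median of 0.18, a direction that their choice partly fixes.

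Counts of genes whose libraries did not overlap between times moved with single libraries. All 6 WT libraries at 1 h lay above all 6 at 0 h for 25 genes (0.14%) and below for 23 (0.128%). In mutants this held for 170 genes above (0.949%) and 54 below (0.302%). Both genotypes shared 3 such genes: Fosb and Etv3, an ETS-family repressor, above, and the unannotated Gm48957 below. No gene separated fully in opposite directions. Without WT 1 h male 1 the WT count was 105 above and 61 below, whereas without any other single WT library it was 36 to 74 above. The mutant count was 193 to 262 above and 68 to 121 below with 1 mutant library left out, highest above without mutant 0 h female 2 and below without mutant 0 h male 1.

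The 20 immediate early transcription factors all had a response above 0 in both genotypes, and 15 rose in the averaged response, against 0.849% of all genes. Their median log2 response was 0.52 in WT mice and 0.70 in mutants, and 16 of 20 had a larger estimate in mutants. The median interaction was 0.13, against -0.0021 over all genes. None was called, and 1 gene, Npas4, had an unadjusted p under 0.05, for a smaller response in mutants.

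Fosb, which forms AP-1 dimers with JUN proteins, was the member that rose in each genotype alone. Its lowest, median and highest level was 6.28, 8.62 and 12.5 CPM in WT at 0 h and 15.9, 23.6 and 30.3 CPM in WT at 1 h. In mutants it was 8.30, 9.998 and 12.5 CPM at 0 h and 21.2, 26.8 and 28.8 CPM at 1 h. No library at 1 h overlapped a library at 0 h in either genotype, and the groups of the 2 genotypes overlapped at each time. The response was 1.35 in WT (adjusted p = 3.3e-04) and 1.37 in mutants (adjusted p = 2.6e-04), and the interaction was 0.015 (SE 0.22, 95% confidence interval -0.44 to 0.47). Its sign turned in several alternatives, with -0.24 the lowest of them, so the estimate has no settled direction.

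Fos, the founding member of the family, behaved more variably. It had a lowest, median and highest level of 5.20, 9.84 and 21.6 CPM in WT at 0 h, 11.7, 28.6 and 34.5 CPM in WT at 1 h, 6.27, 8.70 and 19.9 CPM in mutants at 0 h and 24.2, 29.5 and 33.2 CPM in mutants at 1 h. The genotypes' levels overlapped at both times, and in WT the library WT 1 h male 1 was lowest at 1 h. The response was 1.20 in WT and 1.31 in mutants, with an interaction of 0.11 (SE 0.48, interval -0.89 to 1.11), which was -0.044 without WT 1 h male 1 and -0.26 without the 5 libraries, so its direction is not settled. Junb, a partner of FOS proteins, had an interaction of 0.12 (SE 0.29), and Fosl2, a slower FOS-family member, 0.22 (SE 0.17). Fosl2 was among the 36 genes that rose in mutants.

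The EGR genes encode zinc-finger factors induced through SRF. Egr1 had a lowest, median and highest level of 129, 132 and 205 CPM in WT at 0 h, 106, 259 and 279 CPM in WT at 1 h, 127, 147 and 187 CPM in mutants at 0 h and 230, 270 and 343 CPM in mutants at 1 h. The 0 h and 1 h libraries were apart in mutants, and in WT they overlapped, with WT 1 h male 1 below every 0 h library. The interaction of Egr1 was 0.30 (SE 0.28, unadjusted p = 0.30) and fell to 0.14 without that library. Egr2 had the highest interaction estimate of the list, 0.51 (SE 0.65, unadjusted p = 0.44), with medians in mutants of 2.89 CPM at 0 h and 11.1 CPM at 1 h, beside 9.93 CPM in WT at 1 h. The interaction of Egr2 was 0.28 without WT 1 h male 1 and 0.14 without the 5 libraries. Egr3 (0.14, SE 0.12) and Egr4 (0.23, SE 0.30) were both called in the mutant response.

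The NR4A genes encode orphan nuclear receptors. Nr4a2 had a lowest, median and highest level of 42.5, 57.1 and 75.8 CPM in WT at 0 h, 57.7, 82.2 and 88.9 CPM in WT at 1 h, 41.6, 48.6 and 64.1 CPM in mutants at 0 h and 74.9, 81.1 and 96.0 CPM in mutants at 1 h. The 1 h levels were alike, and the mutants' 0 h median was lower than that of WT, with overlapping libraries. Its response was 0.40 in WT (adjusted p = 0.66) and 0.72 in mutants (adjusted p = 0.019), with an interaction of 0.32 (SE 0.18, unadjusted p = 0.093). Leaving out the 3 libraries with discordant genotype genes gave 0.17, and leaving out all 5 gave 0.029. Nr4a3 had an interaction of 0.29 (SE 0.23) and Nr4a1 of 0.0076 (SE 0.32), and both turned sign in a setting that left out libraries.

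Npas4, a bHLH-PAS factor that responds to calcium entry and controls inhibitory synapses, had the lowest unadjusted p of the list. Its level was 5.37, 7.49 and 9.83 CPM (lowest, median and highest) in WT at 0 h, 9.89, 16.2 and 23.3 CPM in WT at 1 h, 6.60, 8.47 and 15.9 CPM in mutants at 0 h and 9.85, 12.8 and 17.4 CPM in mutants at 1 h. All 6 WT libraries at 1 h lay above all at 0 h, whereas in mutants only 2 of 6 did, since mutant 0 h female 1 was high. The response was 1.09 in WT and 0.48 in mutants, with an interaction of -0.61 (SE 0.29, unadjusted p = 0.049, not called). It was -0.80 without the 5 libraries and -0.37 (unadjusted p = 0.13) without mutant 0 h female 1. Atf3, a stress-induced bZIP factor of under 3 CPM, also had a lower estimate in mutants, -0.47 (SE 0.38), which was -0.10 without the 5 libraries.

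**Figure D2:**
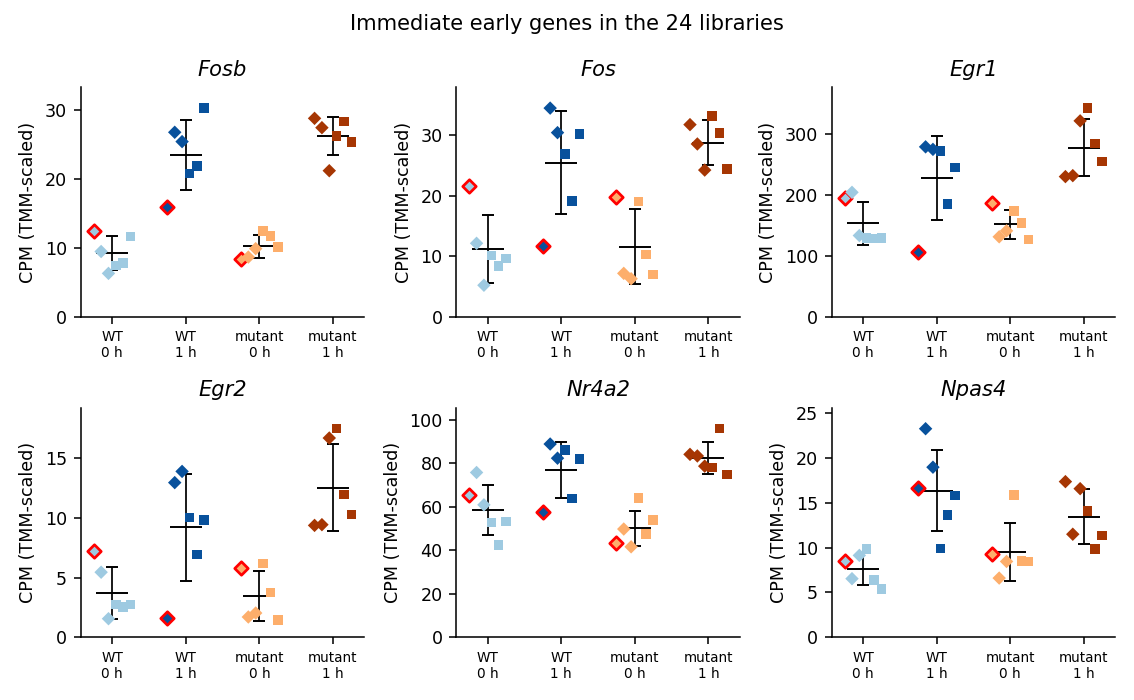
Levels of 6 immediate early genes in CPM (y axis) in each of the 24 libraries, by genotype and time, with squares for libraries labelled female, diamonds for male, and a bar with whiskers for mean and SD of 6. Red outlines mark WT 1 h male 1, WT 0 h male 1 and mutant 0 h male 1, and in the panels of Fos, Egr1 and Egr2 the WT 1 h library so marked sits in the range of the 0 h groups or below it.

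The size of this difference moved with the libraries named above. In WT 1 h male 1, Fos was at 11.7, Egr1 at 106, Egr2 at 1.60, Nr4a1 at 49.1 and Arc at 113 CPM, against at least 19.2, 185, 6.93, 85.7 and 149 CPM in the other 5 WT libraries at 1 h. Npas4, in contrast, was at 16.6 CPM there, inside the range of the other 5. Without this library the median interaction of the 20 factors was 0.060, and without the 5 libraries it was 0.027, with 0.23 the highest value when any 1 library was left out (mutant 0 h female 1).

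The 25 activity-regulated effectors, which include cytoskeletal, trophic and synaptic proteins, had a median response of 0.14 in WT and 0.23 in mutants and a median interaction of 0.047, with 17 of 25 above 0 and none at an unadjusted p under 0.05. That median was 0.027 without WT 1 h male 1, 0.020 without the 3 discordant libraries and 0.044 without all 5, where it lay above that of the 20 factors. Arc, whose protein removes AMPA receptors from synapses, had a lowest, median and highest level of 91.6, 135 and 165 CPM in WT at 0 h, 113, 234 and 372 CPM in WT at 1 h, 78.0, 109 and 201 CPM in mutants at 0 h and 178, 213 and 301 CPM in mutants at 1 h. The responses were 0.87 in both genotypes, and the interval of the interaction ran from -0.84 to 0.84.

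The 20 feedback phosphatases and kinase regulators, which damp MAP kinase signalling, had a median interaction of 0.15, the highest of the lists with all libraries, with 17 of 20 above 0. None had an unadjusted p under 0.05. Dusp5, a nuclear ERK phosphatase, had a lowest, median and highest level of 9.99, 13.6 and 14.4 CPM in WT at 0 h, 10.8, 19.4 and 26.2 CPM in WT at 1 h, 7.28, 13.8 and 16.8 CPM in mutants at 0 h and 20.7, 24.4 and 25.7 CPM in mutants at 1 h. It was called in mutants (0.95, adjusted p = 0.043), and its interaction was 0.39 (SE 0.27, unadjusted p = 0.16), or 0.34 without the 5 libraries. Sik2, a salt-inducible kinase that restrains CREB coactivators, was also called in mutants (0.33, adjusted p = 0.028), with an interaction of 0.18 (SE 0.091). The list's median was 0.091 without WT 1 h male 1 and 0.13 without the 5 libraries, and in both settings other lists lay above it.

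Genes that answer glucocorticoids, which rise in blood after a shock, had a median interaction of 0.12, with 14 of 20 above 0 and none at an unadjusted p under 0.05. Leaving out 1 library at a time moved it between -0.0033 and 0.21. Ddit4, an inhibitor of mTORC1, had a lowest, median and highest level of 44.2, 55.8 and 94.9 CPM in WT at 0 h, 52.0, 74.0 and 86.3 CPM in WT at 1 h, 45.7, 62.5 and 78.0 CPM in mutants at 0 h and 79.0, 85.8 and 111 CPM in mutants at 1 h. All 6 mutant libraries at 1 h were above those at 0 h, and in WT the times overlapped, but the interaction was 0.34 (SE 0.22, unadjusted p = 0.14), and 0.36 without the 5 libraries. Zbtb16, a zinc-finger target of the receptor, had an interaction of 0.32 (SE 0.23), which was 0.11 without them.

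Other genes among the 36 that rose in mutants, chosen after their values were seen, encode signalling proteins. Irs2, the adaptor of insulin and IGF1 receptors, had a lowest, median and highest level of 45.0, 59.3 and 64.9 CPM in WT at 0 h, 56.4, 71.9 and 79.2 CPM in WT at 1 h, 47.2, 54.4 and 65.9 CPM in mutants at 0 h and 76.3, 80.3 and 86.5 CPM in mutants at 1 h. It separated the times in mutants and not in WT, where 4 of 6 libraries at 1 h lay above all at 0 h, and the interaction was 0.24 (SE 0.14, unadjusted p = 0.087), or 0.17 without the 5 libraries. Arhgef3, an activator of RHOA, had a response of 0.11 in WT and 0.32 in mutants (adjusted p = 0.019), with an interaction of 0.21 (SE 0.084, unadjusted p = 0.018) that was 0.14 without the 5 libraries. Irs2 overlaps 9530052E02Rik and Arhgef3 overlaps Gm7591, with which they may share reads. Rasl11b, a small RAS-like GTPase, had 0.20 and 0.49, with an interaction of 0.28 (SE 0.13, unadjusted p = 0.037), and Ago2, the slicer protein of RNA silencing, 0.076 and 0.22, with 0.14 (SE 0.064, unadjusted p = 0.038).

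Further members of that set, and 2 of the genes that fell, were also chosen after their values were seen. Gadd45b, which is linked to DNA demethylation at activity-regulated genes, had a lowest, median and highest level of 7.94, 10.04 and 12.3 CPM in WT at 0 h, 12.04, 14.5 and 17.0 CPM in WT at 1 h, 7.43, 9.83 and 12.5 CPM in mutants at 0 h and 14.1, 15.1 and 17.2 CPM in mutants at 1 h. Its times were apart in mutants and nearly so in WT, with responses of 0.52 and 0.63 and an interaction of 0.10 (SE 0.15), which was -0.068 without the 5 libraries. Kdm7a, a demethylase of histone H3 that overlaps 4930599N23Rik, had responses of 0.28 and 0.38 and an interaction of 0.099 (SE 0.10), Per1, a clock gene that CREB also induces, had 0.16 (SE 0.18), and Gem, a GTPase that limits calcium channels, had 0.36 (SE 0.24), which was 0.054 without the 5 libraries. Of the 22 genes that fell in the averaged response, Fbxo17, an F-box protein, had an interaction of -0.48 (SE 0.36) and Pde9a, which degrades cyclic GMP, -0.13 (SE 0.14), which turned to 0.070 without the 5 libraries.

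A few called genes had a low unadjusted p of the interaction. Marchf11, a membrane-bound ubiquitin ligase, had a lowest, median and highest level of 2.81, 3.62 and 3.97 CPM in WT at 0 h, 3.25, 3.60 and 4.84 CPM in WT at 1 h, 2.76, 2.98 and 3.61 CPM in mutants at 0 h and 3.91, 4.77 and 5.63 CPM in mutants at 1 h. In mutants the times did not overlap, and in WT the medians were alike. It rose in mutants (0.63, adjusted p = 0.019), with a WT response of 0.14 and an interaction of 0.49 (SE 0.16, unadjusted p = 0.0061), which was 0.58 without the 5 libraries. Bhlhe22, a bHLH repressor of projection neurons, rose in mutants as well (0.45, adjusted p = 0.019), against 0.15 in WT, with an interaction of 0.30 (SE 0.11, unadjusted p = 0.011) and 0.23 without the 5 libraries.

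Genes with a symbol and a mean of 1 CPM or more were ranked by p. The 10 of lowest p with a more positive response in mutants had mostly opposite estimates, down in WT and up in mutants. Over all genes tested, 17 had responses of opposite sign with an unadjusted p under 0.05 in each genotype (0.0949%). Lynx1 (chr15:74747856-74752979), whose GPI-anchored protein restrains nicotinic acetylcholine receptors, came first. It had a lowest, median and highest level of 344.7, 420.7 and 481.01 CPM in WT at 0 h, 324.6, 353.4 and 385.5 CPM in WT at 1 h, 311.9, 342.0 and 398.1 CPM in mutants at 0 h and 364.3, 421.1 and 456.1 CPM in mutants at 1 h. The groups overlapped in both genotypes, and the medians exchanged places. The response was -0.23 in WT and 0.24 in mutants, with an interaction of 0.46 (SE 0.11, unadjusted p = 3.4e-04, adjusted p = 0.999). It was 0.41 without the 3 striatal-high libraries and 0.39 without all 5.

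Ribosomal RNA genes followed the same pattern. Rn45s, the precursor of the cytoplasmic ribosomal RNAs, had a lowest, median and highest level of 9484, 11740 and 13161 CPM in WT at 0 h, 6724, 8483 and 9885 CPM in WT at 1 h, 7318, 8634 and 12383 CPM in mutants at 0 h and 10049, 11399 and 13022 CPM in mutants at 1 h. The WT median at 1 h was close to the mutants' at 0 h, and the mutants' at 1 h close to that of WT at 0 h. Its interaction was 0.74 (SE 0.18, unadjusted p = 4.0e-04), and that of Rn18s was 0.73 (SE 0.19, unadjusted p = 0.0011). Selection of poly-A RNA removes most ribosomal RNA, and the share of counts on these genes, 1.37% to 2.19% over the 24 libraries, measures what was left as well as what was made. Lars2, the mitochondrial leucyl-tRNA synthetase, had an interaction of 0.48 (SE 0.14, unadjusted p = 0.0018), with a response of -0.45 in WT and 0.035 in mutants. The part of carried-over ribosomal RNA in these values was not tested.

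The other 6 genes had smaller and narrower differences. Tars, the cytosolic threonyl-tRNA synthetase, had an interaction of 0.20 (SE 0.053), and all 6 mutant libraries at 1 h lay above those at 0 h, at 34.5 to 39.2 against 32.2 to 33.7 CPM. Mrps30, a protein of the mitochondrial ribosome, had an interaction of 0.22 (SE 0.062), and all 6 WT libraries at 1 h lay below those at 0 h, at 20.7 to 20.9 against 22.4 to 27.2 CPM. Trap1, the mitochondrial HSP90, had 0.17 (SE 0.049) and overlaps Dnase1, with which it may share reads. Riox1, a nucleolar histidyl hydroxylase of the JmjC family, had 0.27 (SE 0.077). Ankrd33b, an ankyrin-repeat gene called in the mutant response (0.30, adjusted p = 0.040), had 0.33 (SE 0.086), and Dok4, a docking protein whose gene overlaps Polr2c, had 0.30 (SE 0.082). None of the 10 turned sign in any alternative, which their choice by low p in these libraries partly fixes.

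**Figure D3:**
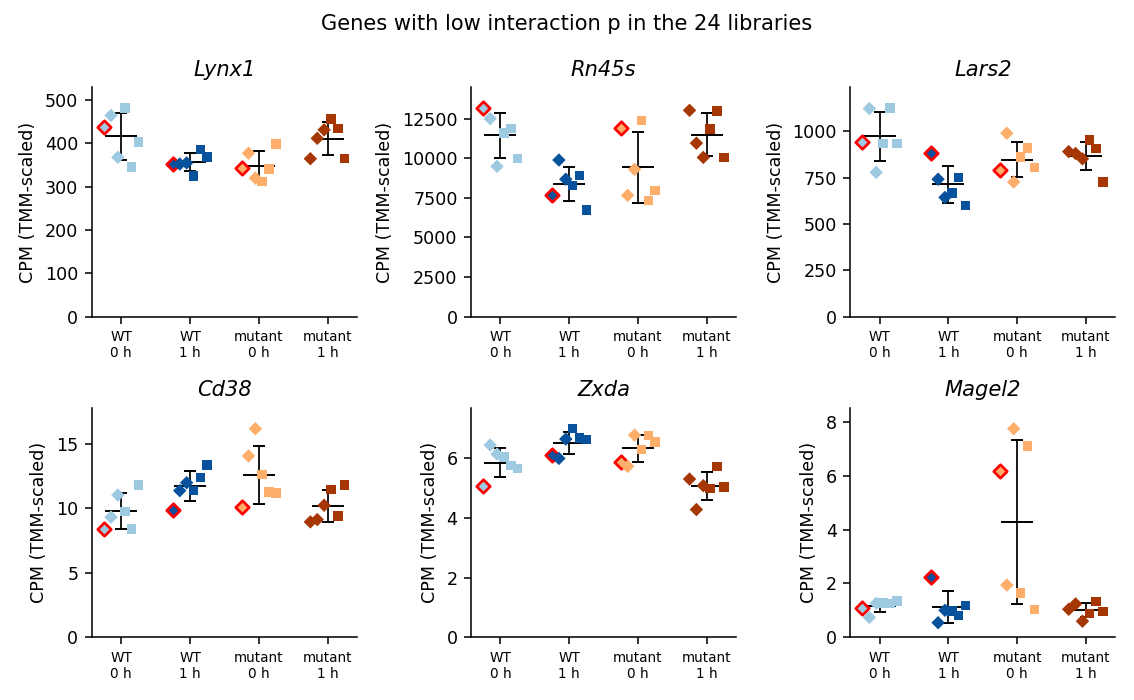
Levels in CPM (y axis) of 6 genes with low interaction p in the 24 libraries, by genotype and time, with squares for libraries labelled female, diamonds for male, a bar and whiskers for mean and SD of 6, and the same 3 libraries outlined in red. Lynx1, Rn45s and Lars2 have lower medians at 1 h than at 0 h in WT, Cd38 and Zxda have lower medians at 1 h in mutants, and Magel2 is high in 3 mutant libraries at 0 h.

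The 10 genes of lowest p with a more negative response in mutants differed in how far they moved without the striatal-high libraries. The interaction there was -0.42 for Zxda, -0.56 for Cd38, -0.27 for Rbms3 and -0.18 for Zfp317, and -0.59 for both Wnk4 and Rtp4, and the other 4 genes are described after them. Zxda (chrX:94791285-94798289), an X-linked zinc-finger gene with near-identical paralogs that may share its reads, had the lowest p of all genes. Its lowest, median and highest level was 5.05, 5.90 and 6.44 CPM in WT at 0 h, 5.99, 6.63 and 6.98 CPM in WT at 1 h, 5.72, 6.41 and 6.77 CPM in mutants at 0 h and 4.28, 5.05 and 5.72 CPM in mutants at 1 h. In mutants 5 of 6 libraries at 1 h were below all at 0 h, and in WT 4 of 6 were above. The response was 0.15 in WT and -0.32 in mutants, with an interaction of -0.47 (SE 0.11, unadjusted p = 2.0e-04, adjusted p = 0.999), and -0.41 without the 5 libraries.

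Cd38, whose enzyme consumes NAD and makes cyclic ADP-ribose, had a lowest, median and highest level of 8.37, 9.52 and 11.8 CPM in WT at 0 h, 9.83, 11.7 and 13.3 CPM in WT at 1 h, 10.1, 11.9 and 16.2 CPM in mutants at 0 h and 8.94, 9.82 and 11.8 CPM in mutants at 1 h. Groups overlapped, with the highest medians in WT at 1 h and in mutants at 0 h. Its interaction was -0.57 (SE 0.16, unadjusted p = 0.0013) and the same without the 5 libraries. Rbms3, an RNA-binding protein, had -0.28 (SE 0.085), and Zfp317, a zinc-finger gene, had -0.20 (SE 0.061). All 6 mutant libraries at 1 h lay below those at 0 h for Zfp317, at 27.7 to 29.7 against 30.1 to 34.1 CPM. Wnk4, a kinase that controls ion transport, had -0.82 (SE 0.24), and -0.58 without the 5 libraries.

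Magel2, C130074G19Rik, Ecel1 and Gad2 were high in the same 3 libraries as the striatal markers. Magel2 (chr7:62376979-62381640), an imprinted gene of the Prader-Willi region, was at 6.18 to 7.76 CPM in the 3 striatal-high mutant libraries and at 0.54 to 2.24 CPM in the other 21. It was the only gene that fell in mutants (-2.06, adjusted p = 0.043), with an interaction of -1.99 (SE 0.59), and the interaction was -0.55 (unadjusted p = 0.21) without those 3. Ecel1, a neuronal endopeptidase, was at 10.2 to 12.9 CPM in the 3 and 0.84 to 3.84 CPM in the rest, and its interaction went from -2.72 to -0.46. C130074G19Rik was at 35.7 to 45.0 against 8.32 to 15.6 CPM, and its interaction went from -1.34 to -0.35. Gad2, which makes GABA, was at 236 to 263 against 168 to 220 CPM, and its interaction went from -0.33 to -0.15. None of these 4 had an unadjusted p under 0.05 without the 3 libraries.

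**Figure D4:**
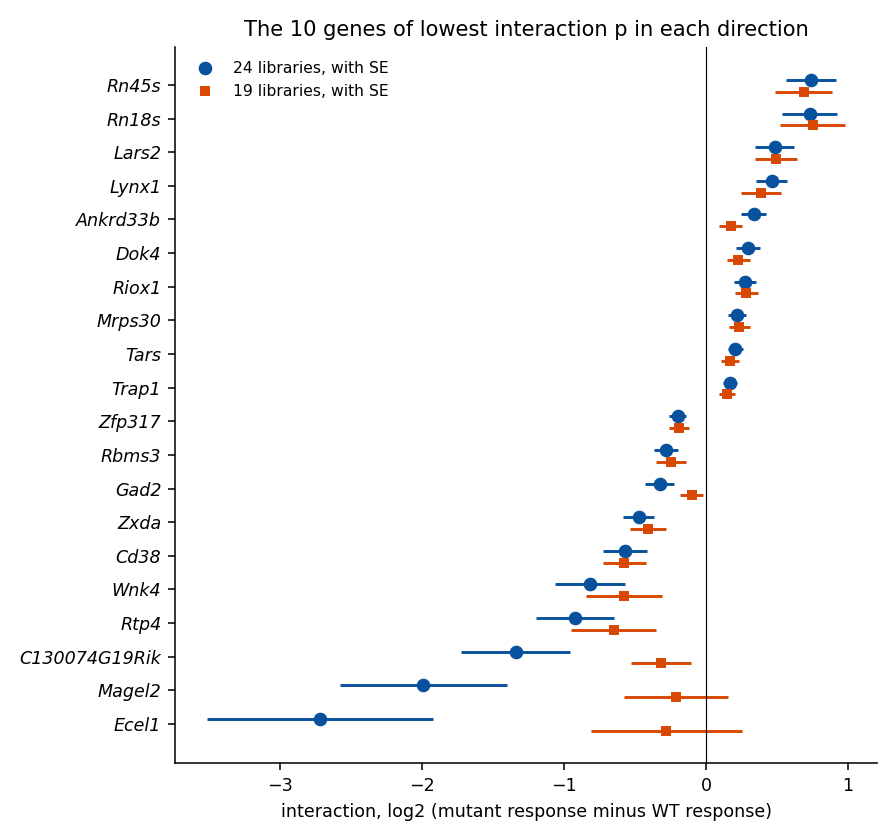
Interaction in log2 units (x axis) with its SE for the 10 genes of lowest p in each direction (y axis), from all 24 libraries (blue circles) and from the 19 left without the 5 libraries that stood apart (orange squares). C130074G19Rik, Magel2, Ecel1 and Gad2 move toward 0 with 19 libraries, whereas Rn45s, Lars2, Zxda and Cd38 stay close to their values.

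The 3 libraries were chosen by their striatal markers, so that values of these markers turn without them is fixed by that choice. Of 12 markers tested, 10 had an interaction below 0, with a median of -0.34, and 2 an unadjusted p under 0.05. Drd2, the D2 dopamine receptor, was at 4.79 to 5.72 CPM in the 3 libraries and 1.25 to 3.00 CPM in the other 21, and its interaction turned from -0.81 to 0.067 without them. The median of the list turned to 0.12. Of the 13 interneuron markers, Gad2 and Dlx1, a homeobox gene of inhibitory precursors and striatum, had an unadjusted p under 0.05, and Dlx1 went from -0.56 to -0.088 without these libraries. The other 11 interneuron markers had none under 0.05.

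Interferon response genes, which cells switch on to resist viruses, had the lowest median interaction of all the lists with all libraries, -0.46, with 23 of 24 below 0. Of these, 5 had an unadjusted p under 0.05, against 2.29% of all genes in this direction, and none was called. The median response was 0.19 in WT and -0.30 in mutants. In summed level, the list ran from 127.9 to 168.3 CPM in WT at 0 h, 128.3 to 219.1 CPM in WT at 1 h, 121.1 to 157.6 CPM in mutants at 0 h and 122.8 to 145.8 CPM in mutants at 1 h, so all 4 groups overlapped. The list's mean log2 level, which weights its genes equally, ran at 1 h from -0.10 to 0.89 in WT and from -0.64 to -0.11 in mutants, relative to the mean of the libraries, so the genotypes came close at 1 h without overlapping, while at 0 h they overlapped.

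Rtp4, a chaperone of receptors at the cell surface that interferon induces, had a lowest, median and highest level of 0.88, 1.18 and 1.53 CPM in WT at 0 h, 1.27, 1.51 and 2.44 CPM in WT at 1 h, 0.88, 1.16 and 1.63 CPM in mutants at 0 h and 0.70, 0.93 and 1.23 CPM in mutants at 1 h. All 6 WT libraries at 1 h were above all 6 mutant libraries at 1 h, and the 0 h groups overlapped. The interaction was -0.92 (SE 0.27, unadjusted p = 0.0025) and -0.65 without the 5 libraries, and Rtp4 overlaps Masp1. Oasl2, an oligoadenylate synthetase-like protein, had -0.97 (SE 0.32), with -0.96 without the 5 libraries. Mx1, a dynamin-like antiviral GTPase that is defective in many laboratory strains, had -2.75 (SE 0.90) at levels of 0 to 0.47 CPM, which limits its precision.

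The interferon list's median moved between -0.55 and -0.33 when 1 library was left out. It was -0.23 without the 3 striatal-high libraries and -0.34 without the 5, and the blood list lay lower in both settings, at -0.48 and -0.53. Microglia markers, the resident macrophages that carry much interferon signalling, had a median of -0.13 (11 of 13 below 0), and endothelial markers -0.067 (11 of 12). With 1 library left out these medians ran from -0.17 to -0.051 and from -0.14 to -0.040, and without the 3 striatal-high libraries the microglial median was -0.037. Microglial summed levels were 426.8 to 540.8 and 428.5 to 543.1 CPM in WT at 0 h and 1 h, and 416.5 to 543.5 and 414.6 to 505.1 CPM in mutants. Their part in the interferon values was not tested.

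**Figure D5:**
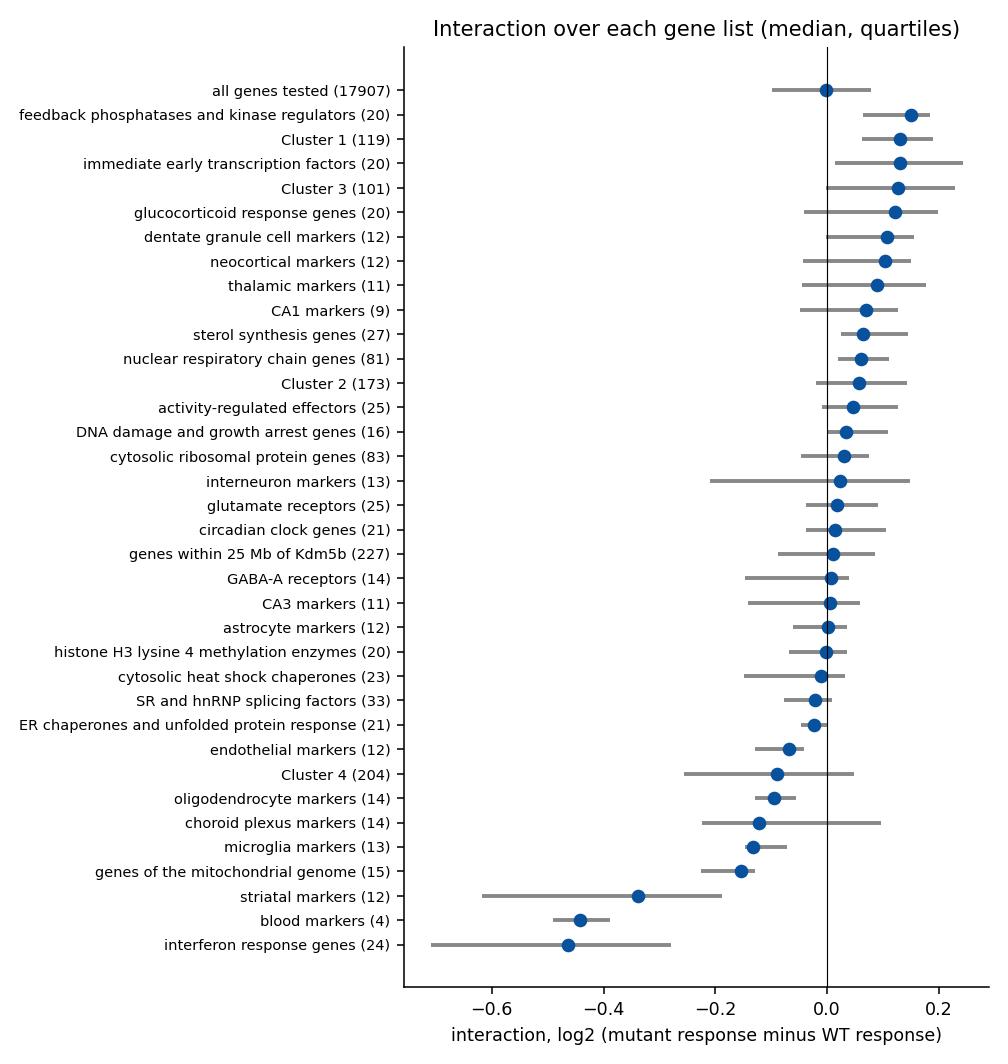
Median (point) and quartiles (line) of the interaction in log2 units (x axis) over each gene list (y axis, with the number of genes tested). The feedback phosphatases (0.15), the study's Cluster 1 (0.13) and the immediate early transcription factors (0.13) lie highest, and the striatal (-0.34), blood (-0.44) and interferon lists (-0.46) lie lowest, with only 4 genes in the blood list, whose median ran from -0.67 to -0.10 with 1 library left out.

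The 81 nuclear genes of the respiratory chain had a median response of -0.090 in WT and -0.020 in mutants, and 69 (85.2%) had an interaction above 0, with a median of 0.060 that stayed between 0.039 and 0.090 when 1 library was left out. Of these, 3 had an unadjusted p under 0.05 for a more positive response in mutants, against 1.49% of all genes. Ndufc1, a complex I subunit, had a lowest, median and highest level of 36.7, 38.1 and 40.1 CPM in WT at 0 h, 28.8, 34.2 and 36.5 CPM in WT at 1 h, 28.9, 32.9 and 36.1 CPM in mutants at 0 h and 29.5, 35.97 and 37.1 CPM in mutants at 1 h. All WT libraries at 1 h lay below those at 0 h, and mutants overlapped, with an interaction of 0.26 (SE 0.085, unadjusted p = 0.0050). Cox6c, a complex IV subunit, had 0.30 (SE 0.13). The 15 genes of the mitochondrial genome had 12 below 0 and a median of -0.15, none at an unadjusted p under 0.05, while cytosolic ribosomal protein genes had a median of 0.029 (52 of 83 above 0). With 1 library left out the mitochondrial median ran from -0.23 to -0.098 and the ribosomal one from 0.0038 to 0.057, and the latter was 0.090 without the striatal-high libraries.

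Sterol synthesis genes had a median response of -0.061 in WT and 0.022 in mutants, and 22 of 27 had an interaction above 0, with a median of 0.064 (0.039 to 0.12 with 1 library left out). Mvd, which makes isopentenyl diphosphate, had an interaction of 0.29 (SE 0.12, unadjusted p = 0.025). All its groups overlapped. Its response was 0.062 in mutants and -0.23 in WT, and neither was called.

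Other lists lay near all genes. The 20 writers and erasers of H3K4 methylation, the mark that KDM5B acts on, had a median interaction of -0.0017, with 10 above and 10 below 0, and 19 of 20 had an interval within 0.5 of 0 on the log2 scale. Splicing factors (-0.021), ER chaperones (-0.023), cytosolic chaperones (-0.011), circadian clock genes (0.013), DNA damage genes (0.034), glutamate receptors (0.017) and GABA-A receptors (0.0073) were within 0.04 of 0. With 1 library left out their medians ran from -0.047 (ER chaperones) to 0.089 (DNA damage genes). The circadian median was 0.084 without the 5 libraries. Hspa1a, the inducible HSP70, had an interaction of -0.54 (SE 0.29, unadjusted p = 0.078). The 227 genes within 25 Mb of Kdm5b, where the mutants may carry DNA of the strain the allele was made in, had a median of 0.0094, with 6 higher and 3 lower at an unadjusted p under 0.05, against 1.49% and 2.29% of all genes.

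Markers of the cell types and neighbouring regions were read beside these values. Dentate granule cell markers had a median interaction of 0.11, CA1 markers 0.069, CA3 markers 0.0052, astrocyte markers 0.00090, neocortical markers 0.10 and thalamic markers 0.089. With 1 library left out the dentate, CA1 and thalamic medians were as low as -0.041, -0.027 and -0.050, and the thalamic median was 0.31 without the striatal-high libraries. Cux2, a homeobox gene of upper cortical layers, had an interaction of 0.43 (SE 0.17, unadjusted p = 0.018). Oligodendrocyte markers had -0.096, which turned to 0.081 without the striatal-high libraries. Choroid plexus markers varied more than any other list, from 54.9 to 6062.7 CPM over the 24 libraries. They gave a median of -0.12, or 0.95 without the 5 libraries, with a median SE of 1.38 and no usable precision. No marker of these cell types and regions was at 0 in every library, and 1 of choroid plexus and 1 of striatum were at 0 in some. The part of cell composition in the responses was not tested.

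The study sorted genes that differed by genotype or by time into 4 clusters on these same samples, so their direction is not independent evidence. Cluster 1 had a median interaction of 0.13, with 100 of 119 genes above 0, of which 10 had an unadjusted p under 0.05, and 2 genes did in the other direction. Cluster 2 had 0.057 (117 of 173 above 0) and Cluster 3 had 0.13 (75 of 101 above 0, with 13 and 2 genes at an unadjusted p under 0.05 higher and lower). Cluster 4 had -0.090, with 127 of 204 below 0 and 14 and 38 genes at an unadjusted p under 0.05. With 1 library left out Cluster 2 reached -0.0029. Without the 5 libraries the medians were 0.070, 0.10, 0.071 and -0.086.

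The study describes Cluster 3 as constitutively overexpressed in mutants, a difference in level that the interaction does not measure. None of 3 genes that the study names in Cluster 3 was called in the interaction. The other 7 genes it names in Clusters 2 to 4 were not called either, with interactions of -0.12 to 0.81 and a lowest unadjusted p of 0.15. C1ql3, a secreted synapse organiser, had a response of 0.046 in WT and 0.27 in mutants, with an interaction of 0.23 (SE 0.12, unadjusted p = 0.061). Cacna1i, a T-type calcium channel, had 0.14 (SE 0.076, unadjusted p = 0.073), and 0.024 without the 5 libraries. C1ql2, the homologue at mossy fibre synapses, had 0.39 (SE 0.33), which was 0.55 without WT 1 h male 1 and 0.23 without the 5 libraries.

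DESeq2 without the low-count filter called 2 interactions. Mbl2, a mannose-binding lectin made in liver, had 4 to 23 counts per library in WT at 0 h, 0 to 4 in WT at 1 h, 0 to 4 in mutants at 0 h and 4 to 24 in mutants at 1 h. The high and low groups met at 4 counts and crossed between genotypes. Its DESeq2 interaction was 5.05 (adjusted p = 0.037 with sex as a covariate, 0.044 without), whereas edgeR without a filter gave an unadjusted p of 8.4e-05 and an adjusted p of 1. Tmprss15, with 7 counts in all from 2 libraries, was called by DESeq2 only with sex as a covariate, and its fitted value is no bound.

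Genotype contrasts within a time gave 0 called genes at 0 h and 0 at 1 h with edgeR, against 1349 genes (7.53%) and 1296 genes (7.24%) at an unadjusted p under 0.05 and 34 and 13 calls by DESeq2 with sex. Without the 3 libraries whose genotype genes lay nearer the other genotype there were 24 and 25 calls, a gain that the choice of those libraries by genotype-differing genes partly fixes. In the same 21 libraries the WT response had 12 called genes and the mutant response 56, and the interaction still had 0.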

How the data were processed

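Dorsal hippocampus RNA was sequenced from 24 mice (poly-A, paired ends). Per the labels and the study's methods, the authors aligned reads to mm10 with STAR 2.7.8a and counted them with featureCounts 2.0.1. The authors deposited 1 table of raw gene counts for each mouse, with no normalization. Annotation, strand setting and treatment of multi-mapping reads are not given in the sources used here, so overlapping genes may share or lose reads.

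All 24 libraries entered 1 model in edgeR 4.0.16 under R 4.3.3 with limma 3.58.1, tested by the robust quasi-likelihood F-test, with a term per group and sex as labelled, TMM factors, filterByExpr with a minimum count of 10 and Benjamini-Hochberg adjustment at 0.05. The SE is the log2 value divided by the root of F. CPM values are counts scaled by library size and TMM factor. Counting error allows up to 3 reads where a library has 0. Named genes are those called, the 10 of lowest p in each direction at 1 CPM or more, the immediate early factors, up to 3 per list and those the study names; some of these are given as counts and 1 is not reported here. The members and lists were chosen with earlier results of these data known. DESeq2 1.42.0 was an alternative. The code was tested on simulated data. Motif searches used RefSeq promoters, and tables and figures Python 3.11.15, NumPy 2.4.6, pandas 2.3.3 and Matplotlib 3.10.9. The 12 libraries at 3 h and the first cohort were not used in the comparison. Those at 3 h entered only the genotype check and an alternative fit of all 36 libraries.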

Additional observations from a re-analysis of the deposited data

Results flagged for a closer look

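In 268 groups of 6 libraries (67 genes, 4 groups each), the highest or lowest library lay far from the other 5 in 13 (4.85%), and chance sets apart about 1 in 20 groups. The highest were Npas4 in mutant 0 h female 1 (15.9 CPM), which bears on the low mutant response of that gene, Atf3 in mutant 0 h male 1 (1.85 CPM), Tars in mutant 1 h female 1 (39.2 CPM), Gad2 in mutant 1 h female 2 (208 CPM), Kdm7a in mutant 0 h female 2 (122 CPM), Rasl11b in WT 0 h male 2 (87.4 CPM), Pde9a in WT 0 h male 3 (17.4 CPM) and C1ql2 in WT 1 h male 1 (64.4 CPM). The lowest were Dusp5 in mutant 1 h male 1 (20.7 CPM), Bhlhe22 in WT 0 h male 3 (110.1 CPM), Trap1 in mutant 0 h male 3 (55.1 CPM), and Ndufc1 in WT 1 h male 3 (28.8 CPM) and in mutant 1 h male 1 (29.5 CPM). For no gene did all WT libraries move one way and all mutant libraries the other.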

How the results depend on the processing

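The interaction had 0 called genes in every edgeR setting tried, and 2 and 1 with DESeq2 with and without sex. Genes of unadjusted p under 0.05 with a more positive response in mutants numbered 230 to 431 when 1 library was left out (431 without mutant 0 h male 1). They numbered 417 without the 3 libraries of discordant genotype genes. Those with a more negative response numbered 263 without the 3 striatal-high libraries and 260 without all 5.

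Called genes of the WT response numbered 10 and 10 with DESeq2, 12 without the 3 discordant libraries, 11 without the 5, and 1 to 7 with 1 library left out (7 without WT 1 h male 1, 2 without mutant 0 h female 1). Those of the mutant response numbered 23 with upper quartile factors, 24 with no filter, 227 and 230 with DESeq2, 0 without the striatal-high libraries, 56 without the discordant ones, 1 without the 5, and 1 to 72 with 1 library left out. The extremes were 1 without mutant 0 h male 3, 2 without mutant 1 h male 3 and 5 without mutant 1 h male 2, against 65 without mutant 0 h male 2 and 72 without WT 1 h male 1. The averaged response had 424 and 451 with DESeq2, 65 without the striatal-high libraries, 294 without the discordant ones, and 67 to 344 with 1 library left out (344 without WT 1 h male 1). Mutant against WT at 0 h gave 34 and 51 with DESeq2, 24 and 11 without the 3 and the 5 libraries, and 0 to 12 with 1 left out (12 without mutant 0 h female 3). At 1 h it gave 13 and 11, 25 and 23, and 0 to 2 (2 without WT 1 h male 1). Settings that leave out the 3 or 5 libraries were chosen after seeing the data. Fewer libraries lower power, and otherwise the cause was not tested.

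Of 67 genes followed over 38 settings, 58 kept their sign, which is partly fixed for those chosen by low p. Fos turned to -0.095 and -0.26 without the 3 and the 5 libraries (with 1 left out -0.19 to 0.36). Fosb turned to -0.0014, -0.24 and -0.21 without the striatal-high, the discordant and the 5 libraries (-0.11 to 0.10), and Nr4a1 to -0.014 with sex as the counts show it and -0.12 and -0.14 without the 3 and the 5 (-0.15 to 0.15). Without the 5, Nr4a3 was -0.0053, Junb -0.013, Gadd45b -0.068 and Pde9a 0.070. Arc was 5.1e-04 with RLE factors, 0.0011 and 0.000981 with DESeq2, 0.0025 with 10 counts in every library, 0.0024 without mitochondrial and ribosomal RNA genes and 0.070 without the striatal-high libraries (-0.15 to 0.21). Drd2 was 0.067 and 0.15 without the striatal-high and the 5.

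Same-numbered libraries were somewhat more alike than others. They correlated at -0.31 to 0.39, with a median of 0.10 over 36 pairs, against -0.029 for other pairs. Of the 24 libraries, 13 correlated best with their own number. The labels do not say what the numbers share, and whether they mark pairs or a batch was not tested. With the replicate block the WT response had 2 called genes, the mutant response 50 and the averaged response 193. Fosb turned to -0.0054 and Arc to 0.0050, and the interaction stayed at 0 called genes.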
